A study of Mus musculus with 11 samples.

Results

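Of the 22619 genes measured in SMB21 medulloblastoma cells, 57 code for Wnt ligands, Wnt receptors, secreted Wnt antagonists, regulators of receptor turnover, the beta-catenin destruction machinery or Tcf/Lef factors. They were taken by name, and the 35 with a mean CPM (library-scaled count) of at least 0.5 over all libraries are described. Wnt ligands are secreted lipid-modified proteins that bind Frizzled receptors. With the coreceptors Lrp5 and Lrp6 they stop the degradation of beta-catenin, which then acts with Tcf/Lef factors on target genes, while Wnt5a and its relatives act mainly through Ror and Ryk receptors without beta-catenin. In the developing cerebellum Wnt signals pattern the midbrain-hindbrain border, and medulloblastomas with active beta-catenin form a tumour class separate from those driven by Hedgehog signalling.

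SMB21 is a line of the Hedgehog-driven class, from a tumour of an adult mouse of the Ptch1tm1Mps/J strain, and every library, controls included, carries the Ptch1 mutation. Poly(A) RNA was read in 4 Ofd1-mutant libraries, 2 Sufu-mutant libraries, 2 libraries of parental cells given the Smoothened inhibitor sonidegib for 24 h, and 3 of untreated parental cells, all grown as neurospheres. The mutants are clones picked up in a transposon screen for resistance. Whether drug was present in their culture is not stated. Ofd1 replicates 1 and 2 are the same clone, R14, while replicate 3 is R16 and replicate 4 is R25. Sufu replicate 1 is clone R13 and replicate 2 is R1.

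Totals ran from 24308451 to 38241595 counts. The transcripts of the mutated genes were present in their own clones. Ofd1 was at 9.27 to 23.4 CPM in Ofd1 mutants and 35.4 to 42.9 CPM in parental cells. Sufu was at 2.76 and 17.7 CPM in Sufu mutants and 27.7 to 29.6 CPM in parental cells. Sufu also lay below every parental library in Ofd1 mutants, at 12.02 to 19.2 CPM, and with sonidegib, at 24.8 and 5.6 CPM. Lower Sufu was thus not particular to the Sufu clones. The Hedgehog target Gli1 stood at 143, 126, 187 and 69.9 CPM in Ofd1 mutants, 229 and 238 CPM in Sufu mutants, 7.68 and 8.82 CPM with sonidegib and 220 to 243 CPM in parental cells. It was below every control in Ofd1 mutants (log2 -0.79 ± 0.27, adjusted p = 0.247 by edgeR) and fell with sonidegib (log2 -4.80 ± 0.24, adjusted p = 0.00287). The 8 granule cell lineage markers (Atoh1, Barhl1, Zic1, Zic2, Pax6, Neurod1, Nhlh1 and Cntn2) were all above 1 CPM on average in every group. Their sum was 1906 to 2401 CPM in Ofd1 mutants, 1711 to 1772 in Sufu mutants, 3856 to 3865 with sonidegib and 2015 to 2391 in parental cells. Mean Barhl1 was at 1070 CPM with sonidegib and 470 in parental cells, Nhlh1 at 537 and 253, and Zic1 at 594 and 522. The sum is thus no measure of progenitors alone. The 6 oligodendrocyte markers summed to 5.89 to 8.52 CPM in Ofd1 mutants, 7.45 to 13.8 in Sufu mutants, 5.87 to 8.43 with sonidegib and 4.62 to 4.91 in parental cells, and microglial markers summed to at most 0.371 CPM in a library. Of 9 fibroblast and pericyte markers 1, Pdgfra, averaged above 1 CPM in any group, at 219 to 410 CPM in Ofd1 mutants, 186 and 465 in Sufu mutants, 50.3 and 79.6 with sonidegib and 146, 148 and 364 in parental cells. The 5 astrocyte markers summed to 125 to 139 CPM in Ofd1 mutants, 99.5 to 119 in Sufu mutants, 343 to 385 with sonidegib and 183 to 248 in parental cells. The part of these markers in the results was not tested. Sonidegib replicate 2 stood apart, with relatively less signal from long transcripts (correlation with length across genes of -0.49, against -0.09 to 0.20 in the other libraries, where genes are not independent). Libraries also fell into sets: a second principal component of 10941 genes, with 17.3% of variance, held sonidegib replicate 1 and parental replicates 1 and 2 at scores of 28.9 to 39.4. All clones, sonidegib replicate 2 and parental replicate 3 had scores of -26.7 to -4.47.

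The promoters of Fzd10 and Tcf7l2, members that fell in Ofd1 mutants, are shown to set the gene names beside their sequence. The letters are from RefSeq (GRCm38.p6), 250 bases before the start site in lower case and 50 bases after it in capitals. Fzd10 is at chr5:128600856-128601155 on the plus strand and Tcf7l2, at the more upstream of its windows, at chr19:55741560-55741859 on the plus strand.
Fzd10: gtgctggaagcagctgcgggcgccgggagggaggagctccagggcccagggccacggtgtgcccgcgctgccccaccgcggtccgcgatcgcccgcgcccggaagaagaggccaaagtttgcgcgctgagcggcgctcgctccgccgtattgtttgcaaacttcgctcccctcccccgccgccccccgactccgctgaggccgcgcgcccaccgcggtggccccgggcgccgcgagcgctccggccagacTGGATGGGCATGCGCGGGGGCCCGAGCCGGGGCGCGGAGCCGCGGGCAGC
Tcf7l2: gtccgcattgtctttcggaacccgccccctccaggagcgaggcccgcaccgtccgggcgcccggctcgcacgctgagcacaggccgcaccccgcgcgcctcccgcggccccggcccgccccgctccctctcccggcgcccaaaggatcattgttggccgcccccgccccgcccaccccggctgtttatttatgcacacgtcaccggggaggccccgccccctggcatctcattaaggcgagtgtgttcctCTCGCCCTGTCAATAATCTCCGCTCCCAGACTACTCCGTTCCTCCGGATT
Neither window held the Tcf/Lef core letters CTTTGAT or CTTTGAA or the Gli core letters GACCACCCA on either strand. Over all 32851 promoter windows these were present in 3.73%, 5.14% and 0.253%. Windows were at hand for 23 of the 35 members, 29 windows in all, of which 1, at Wnt5b, held CTTTGAT. The member windows had a median GC content of 67.7% and a median of 31 CpG dinucleotides, against 52.7% and 7 over all windows. These windows are 300 bases long and are placed by annotated start sites, so where a gene has several, a window can lie inside a longer transcript. No binding was measured.

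Of the 57 genes, 22 stayed under a mean of 0.5 CPM. They comprise 12 of 19 ligands, 6 of 10 secreted antagonists, 2 of 10 Frizzled genes, the R-spondin receptor Lgr5 and Lef1. The highest value among them was 1.48 CPM, for the antagonist Dkk2 in Sufu clone R13. Wnt1, which patterns the midbrain-hindbrain border, never passed 2 counts in a library, and Wnt3a, a ligand of the beta-catenin branch, never passed 1. Wnt8a had 0 counts in all 11 libraries, which allows up to 0.00859 CPM (3 counts over the summed libraries, for counting error only). Lef1 was at 26 counts in Sufu clone R13, 18 counts in each of Ofd1 clones R16 and R25, and at most 4 counts in the other libraries.

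Levels of different members can be set side by side only per length, so CPM were divided by the exon length of the gene in kilobases. On that scale and as means over the 11 libraries, beta-catenin itself (Ctnnb1) stood at 204 CPM per kb and the receptor Fzd7 at 175 CPM per kb. The secreted antagonists Sfrp1 and Sfrp2 followed at 70.9 and 51.2 CPM per kb. The ligands were far lower, from 4.13 CPM per kb for Wnt5a to 0.359 for Wnt7b, and so were the Tcf factors, at 2.77 for Tcf7l1, 1.17 for Tcf7l2 and 0.635 for Tcf7. Fzd7 made up 74.9% to 87.0% of the summed Frizzled level in every library.

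The first comparison sets Ofd1-mutant clones against untreated cells of their parent line. The 4 Ofd1 libraries come from 3 clones, and the main test takes each library as independent. With the R14 libraries summed, 0 members were called, as given below. A ligand, a receptor and a transcription factor fell: Wnt5a, Fzd10 and Tcf7l2. They are 3 of 35 members with an adjusted p under 0.05, against 0.363% of the 13779 genes tested (0.181% lower and 0.181% higher). No member was called as higher, while Tcf7 and Fzd6, given below, lay above every control without passing the threshold. The 3 called members were all among the genes put forward for this set with earlier results known. Their calls are thus no independent evidence. Fzd10 averaged 0.174 CPM in Ofd1 mutants and reached the cut of 0.5 CPM only through other groups. Its place among the lower members was thus fixed in part by that cut. Adjusted p-values are from the edgeR quasi-likelihood test with Benjamini-Hochberg adjustment over all genes tested, and tests are two-sided.

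Wnt5a (ENSMUSG00000021994), the ligand that signals mainly without beta-catenin, was at 11.02, 16.03, 11.5 and 12.4 CPM in Ofd1 mutants, against 62.7, 60.9 and 32.4 CPM in parental replicates 1, 2 and 3. The groups did not overlap, and parental replicate 3 was the lowest of the controls. The log2 fold change was -2.02 ± 0.25 (SE), with an adjusted p of 0.0355 by edgeR. Fzd10 (ENSMUSG00000081683), a Frizzled receptor, was nearly silent in the mutants, at 2, 7, 8 and 6 counts, against 177, 252 and 56 counts in parental cells. In CPM that is 0.174 ± 0.0858 (SD, n = 4) in Ofd1 mutants and 4.65 ± 2.65 (n = 3) in parental cells, a log2 fold change of -4.71 ± 0.61 with an adjusted p of 0.0402 by edgeR. Every Ofd1 library was below every parental library, and parental replicate 3 was the lowest of the controls. Tcf7l2 (ENSMUSG00000024985), a Tcf factor that binds beta-catenin, was at 3.6, 4.1, 4.2 and 5.9 CPM in the mutants, against 16.1, 15.7 and 10.7 CPM in parental cells. Again there was no overlap, with a log2 fold change of -1.66 ± 0.24 and an adjusted p of 0.0464 by edgeR.

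The direction of these 3 falls held without any single library, with log2 fold changes of -2.28 to -1.87 for Wnt5a, -5.13 to -4.35 for Fzd10 and -1.83 to -1.56 for Tcf7l2, but the calls did not. The number of members called by edgeR was 0 without parental replicate 1 or 2 or Ofd1 replicate 1, 2 or 3, when 0 to 11 of all genes were called, and it was 6 without parental replicate 3 and 5 without Ofd1 replicate 4. With the library set as a term in the fit, which leaves parental replicate 3 as the control that matters, the log2 fold changes were -1.34 for Wnt5a, -3.22 for Fzd10 and -1.25 for Tcf7l2 (adjusted p of 0.0893, 0.0898 and 0.173 by edgeR). With the R14 pair summed to 1 library, so that each clone counted once, adjusted p-values by edgeR were 0.0756, 0.0872 and 0.101.

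**Figure D1:**
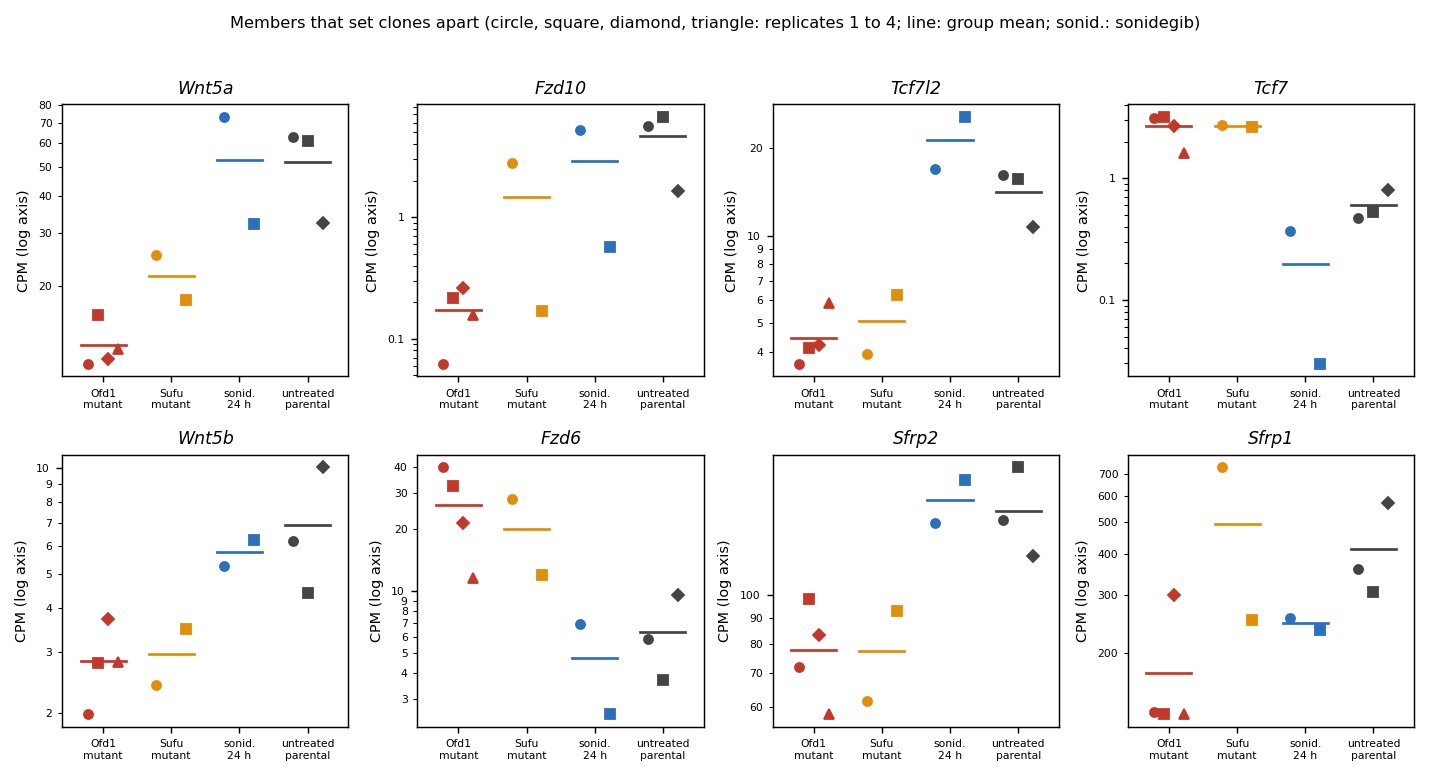
CPM (log axis) of Wnt5a, Fzd10, Tcf7l2, Tcf7, Wnt5b, Fzd6, Sfrp2 and Sfrp1 in each of 11 libraries, by group, with a line at the group mean and a marker shape per replicate. Wnt5a, Fzd10 and Tcf7l2 lie lower in all 4 Ofd1 libraries than in the 3 parental libraries, while Tcf7 and Fzd6 lie higher.

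Among the other Tcf/Lef factors, Tcf7, a Tcf factor best known from T cells, was at 3.2, 3.2, 2.7 and 1.6 CPM in Ofd1 mutants, against 0.47, 0.53 and 0.80 CPM in parental cells. Its log2 fold change of 2.15 ± 0.38 missed the threshold (adjusted p = 0.0596 by edgeR) but passed with DESeq2 (1.57e-05). It also passed with edgeR without parental replicate 3 (0.0368) or Ofd1 replicate 4 (0.0293). These were 2 of 7 edgeR fits with a library left out, and adjusted p-values in these ran up to 0.291. Tcf7l1, known mainly as a repressor of Wnt targets, averaged 8.60 ± 2.65 CPM in Ofd1 mutants (SD, n = 4) and 15.3 ± 2.68 CPM in parental cells (n = 3), without overlap (log2 -0.82 ± 0.26, adjusted p = 0.211 by edgeR). As shares of the family's summed CPM per kb, Tcf7 took 14.03% to 36.5% in Ofd1 mutants, 27.4% and 28.0% in Sufu mutants, 0.20% and 2.59% with sonidegib and 3.04% to 5.77% in parental cells. Tcf7l2 took 11.6% to 15.1% in Ofd1 mutants, 11.6% and 19.8% in Sufu mutants, 35.8% and 52.4% with sonidegib and 23.1% to 34.4% in parental cells. Tcf7l1 was the main family member in 10 of 11 libraries, the exception being sonidegib replicate 2. The summed level of the family was 3.24 to 4.44 CPM per kb in Ofd1 mutants, 3.599 and 3.85 in Sufu mutants, 5.39 and 5.57 with sonidegib and 5.27 to 6.65 in parental cells.

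**Figure D2:**
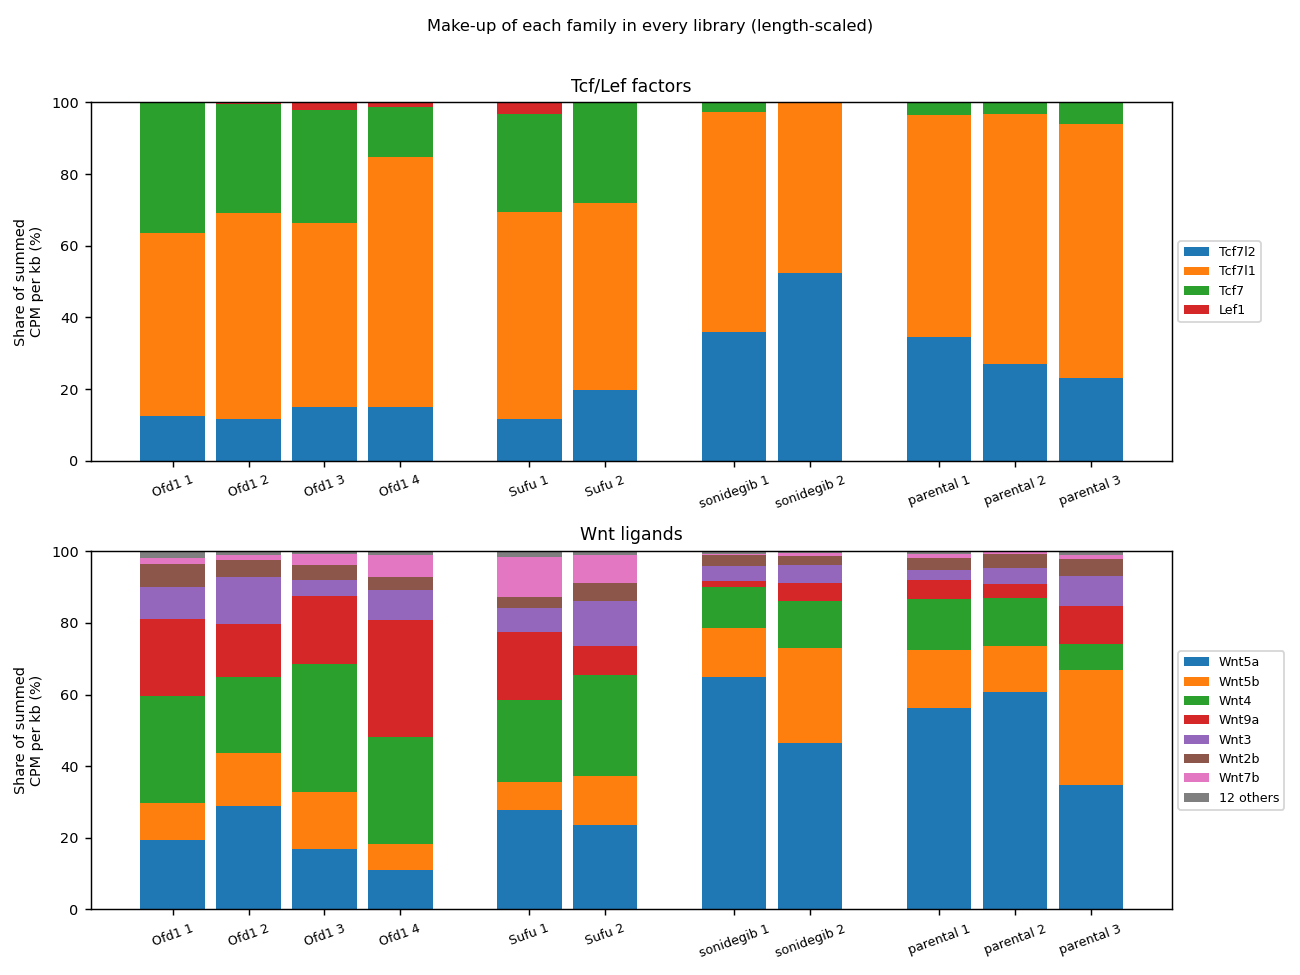
Shares (%) of the summed CPM per kb taken by each Tcf/Lef factor (top) and each Wnt ligand (bottom) in every library. Tcf7 takes 14.03% to 36.5% in the 6 clone libraries and at most 5.77% in parental and sonidegib-treated cells, and Wnt5a at most 28.9% in the clone libraries against at least 34.8% in the others.

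Other ligands differed less firmly. Wnt5b, the paralogue of Wnt5a, was at 2.0, 2.8, 3.7 and 2.8 CPM in Ofd1 mutants, against 6.2, 4.4 and 10.1 CPM in parental cells, with no overlap (log2 -1.28 ± 0.34, adjusted p = 0.153 by edgeR). Wnt4, which acts in several developing organs, was at 6.34 to 18.1 CPM in Ofd1 mutants and 3.72 to 8.45 CPM in parental cells (log2 0.87 ± 0.41, adjusted p = 0.394). Wnt9a was at 5.2, 3.5, 5.5 and 15.9 CPM in Ofd1 mutants and 2.5, 1.7 and 4.2 CPM in parental cells, so the groups overlapped, and clone R25 was far above the other clones. The ligand make-up per length differed accordingly. Wnt5a took 19.4%, 28.9%, 16.9% and 10.9% of the summed ligand level in Ofd1 mutants, against 56.2%, 60.7% and 34.8% in parental cells, and Wnt4 took 21.3% to 35.6% in Ofd1 mutants, against 7.46% to 14.1% in parental cells. The sum itself overlapped, at 7.10 to 14.5 CPM per kb in Ofd1 mutants and 11.9 to 14.3 in parental cells. Wnt2b, Wnt3 and Wnt7b did not separate the groups.

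Of the other Frizzled receptors, Fzd6, which takes part in planar polarity, was at 40.0, 32.3, 21.5 and 11.6 CPM in Ofd1 mutants, against 5.9, 3.7 and 9.5 CPM in parental cells. The groups did not overlap, but the clones differed widely among themselves and the difference missed the threshold with edgeR (log2 2.05 ± 0.47, adjusted p = 0.112). Without clone R25, the lowest of the Ofd1 libraries, it passed (0.0369), and with DESeq2 too (1.82e-04). That was 1 of 7 edgeR fits with a library left out, and adjusted p-values in these ran up to 0.429. Fzd9, a receptor known from brain and bone, was at 1.2, 2.8, 2.0 and 0.7 CPM in Ofd1 mutants, against 3.8, 4.5 and 4.7 CPM in parental cells (log2 -1.39 ± 0.44, adjusted p = 0.211 by edgeR). Fzd7 at 745 ± 87.1 CPM in Ofd1 mutants (n = 4) and 888 ± 289 CPM in parental cells (n = 3), and Fzd1, Fzd2, Fzd3 and Fzd5, overlapped between the groups. The coreceptors Lrp6, Ror1 and Ror2 and the receptor Ryk had log2 fold changes of -0.09 to 0.10. Lrp5 was at 12.5, 17.8, 28.0 and 54.7 CPM in Ofd1 mutants and 51.7, 76.0 and 44.9 CPM in parental cells (log2 -1.01 ± 0.46, adjusted p = 0.381).

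Among the secreted antagonists of the Sfrp family, which bind Wnt proteins outside the cell, none passed the test in Ofd1 mutants. Sfrp1 was at 132, 131, 301 and 130 CPM in Ofd1 mutants, against 360, 307 and 572 CPM in parental cells. Clone R16 nearly reached the lowest control, and the log2 fold change of -1.24 ± 0.35 missed the threshold (adjusted p = 0.171 by edgeR). Sfrp2 was at 72.0, 98.0, 83.5 and 58.2 CPM in Ofd1 mutants, against 141, 178 and 119 CPM in parental cells (log2 -0.90 ± 0.20, adjusted p = 0.101). Sfrp4 was at 0.342 to 0.683 CPM in Ofd1 mutants and 0.665 to 1.51 CPM in parental cells, with overlap. Wif1, which also sequesters Wnt ligands, could not be placed: it was at 7.9, 28.0, 32.6 and 48.6 CPM in Ofd1 mutants and at 5.5, 8.9 and 81.8 CPM in parental cells. The controls thus differed by more than the clones, with parental replicate 3 set apart.

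By count, 10 of 35 members had no overlap between Ofd1 and parental libraries, 2 higher and 8 lower, where 13.4% of all genes tested did (6.17% higher, 7.25% lower). At an unadjusted p under 0.05 there were 13 members, 3 higher and 10 lower, against 13.8% of all genes (7.58% higher, 6.2% lower). Fzd10, which reached the cut of 0.5 CPM only through other groups, is among the lower members in both counts. The median log2 fold change of the 35 was -0.12, against 0.01 over all genes. Exons of Sfrp2, Fzd5 and Ctnnb1 overlap a gene on the other strand over 14.6% to 17.8% of their length, and the strand setting of the counting is not given in the sources used here, so reads of both cannot be told apart.

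**Figure D3:**
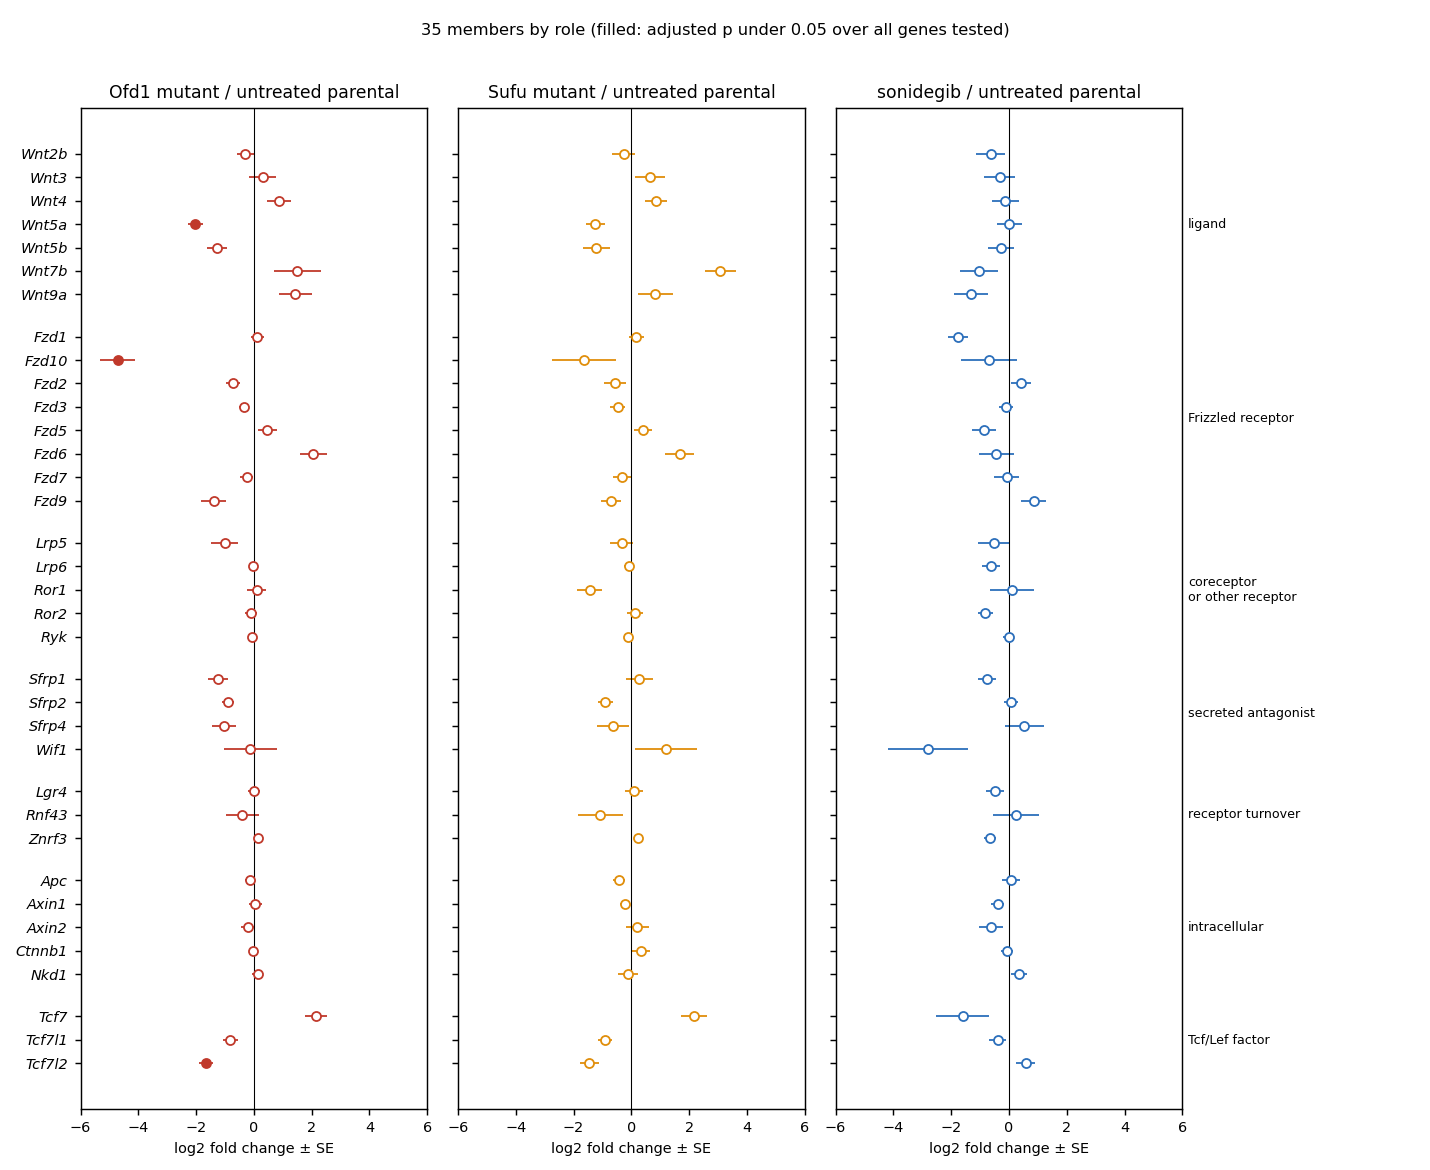
Log2 fold change ± SE of 35 members, grouped by role, in Ofd1 mutants, Sufu mutants and sonidegib-treated cells over untreated parental cells, with filled points for an adjusted p under 0.05 (edgeR). The filled points are Wnt5a, Fzd10 and Tcf7l2 in Ofd1 mutants, and no point is filled for Sufu mutants or sonidegib. Both libraries of clone R14 enter the Ofd1 fit as independent.

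The second comparison sets Sufu-mutant clones against the same untreated cells. Here 0 of 35 members passed the edgeR test, as did 0% of 13854 genes. At an unadjusted p under 0.05 there were 9 members (Tcf7, Wnt7b, Fzd6, Tcf7l2, Tcf7l1, Wnt5a, Wnt5b, Sfrp2 and Ror1), 3 higher and 6 lower, against 9.68% of all genes (4.93% higher, 4.75% lower), and DESeq2 called the 7 of these other than Wnt5b and Sfrp2. Groups did not overlap for 13 members, 5 higher and 8 lower, against 26.7% of all genes (11.9% higher, 14.8% lower). The median log2 fold change of the 35 was -0.13, against 0.0043 over all genes. The same 3 parental libraries serve both clone classes, so the values below are no independent repeat of those above.

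Tcf7l2 was at 3.9 and 6.3 CPM in Sufu mutants, against 10.7 to 16.1 CPM in parental cells (log2 -1.46 ± 0.33, adjusted p = 0.327 by edgeR). Tcf7 was at 2.76 and 2.65 CPM in Sufu mutants, against 0.47 to 0.80 CPM in parental cells (log2 2.18 ± 0.44, adjusted p = 0.294). Tcf7l1 was at 8.7 and 7.4 CPM in Sufu mutants, against 13.01 to 18.2 CPM in parental cells. For all of these factors the Sufu libraries lay outside the range of the controls. Wnt5a was at 25.4 and 18.0 CPM in Sufu mutants, against 32.4 to 62.7 CPM in parental cells (log2 -1.25 ± 0.34, adjusted p = 0.393). With the library set as a term the log2 value was -0.56. Fzd10 split the clones, with 69 counts in R13 and 4 counts in R1, and its log2 value ran from -4.75 without R13 to -0.74 without R1.

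Wnt7b, a ligand that can act through beta-catenin, had the largest positive log2 value of the members in Sufu mutants. It was at 6.4 and 3.7 CPM in Sufu mutants, against 0.8, 0.3 and 0.7 CPM in parental cells (log2 3.08 ± 0.54, adjusted p = 0.240 by edgeR and 5.70e-05 with DESeq2). In the Ofd1 mutants it was at 0.6, 0.5, 1.3 and 4.4 CPM, so that clone R25 lay between the Sufu clones and the other Ofd1 libraries did not. Fzd6 was at 28.0 and 12.1 CPM in Sufu mutants, against 3.7 to 9.5 CPM in parental cells (log2 1.67 ± 0.50, adjusted p = 0.438), with a log2 value of 0.93 without R13, 2.15 without R1 and 1.09 with the library set as a term. Sfrp2 was at 61.8 and 92.9 CPM in Sufu mutants, against 119 to 178 CPM in parental cells, and Wnt5b at 2.4 and 3.5 CPM, against 4.4 to 10.1 CPM. Wnt4 was at 11.3 and 11.6 CPM in Sufu mutants, against 3.72 to 8.45 CPM in parental cells (log2 0.85 ± 0.38, adjusted p = 0.545). Sfrp1 differed between the clones, R13 with 733 CPM and R1 with 251 CPM, and its log2 value of 0.27 turned to -0.71 without R13.

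Ror1, a receptor tyrosine kinase for Wnt5a, was at 7.2 and 15.5 CPM in Sufu mutants, against 19.7 to 38.3 CPM in parental cells (log2 -1.45 ± 0.43, adjusted p = 0.438 by edgeR). In Ofd1 mutants it was at 40.6, 21.6, 24.5 and 46.0 CPM. The related receptor Ror2 was at 88.2 and 46.7 CPM in Sufu mutants, 43.3 to 78.7 CPM in Ofd1 mutants and 55.0 to 73.2 CPM in parental cells, with overlap throughout.

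Set directly against each other, Ofd1 and Sufu clones had no member that passed the edgeR test (0 of 34 tested, against 0.00713% of 14026 genes), while DESeq2 called Ror1. At an unadjusted p under 0.05 there were 3 members, 1 higher and 2 lower, against 8.93% of all genes (4.26% higher, 4.68% lower), and 3 had no overlap, 1 higher and 2 lower, against 18.2% (9.85% higher, 8.34% lower). Ror1 was at 21.6 to 46.0 CPM in Ofd1 mutants and at 7.2 and 15.5 CPM in Sufu mutants (log2 1.53 ± 0.45, adjusted p = 0.446 by edgeR, 0.0253 with DESeq2). Wnt5a was at 11.02 to 16.03 CPM in Ofd1 mutants and at 25.4 and 18.0 CPM in Sufu mutants, without overlap (log2 -0.79 ± 0.23, adjusted p = 0.445 by edgeR, and log2 -0.52 without Sufu clone R13). Wif1 was at 7.9 to 48.6 CPM in Ofd1 mutants and 57.3 and 87.3 CPM in Sufu mutants, also without overlap. Sfrp1 had a log2 difference of -1.53 ± 0.49 (adjusted p = 0.468), which was -0.55 without Sufu clone R13 and -2.10 without R1. Tcf7l2 at -0.21 ± 0.33, Tcf7 at -0.03 ± 0.37 and Sfrp2 at -0.01 ± 0.24 were close to 0, with standard errors that leave room for moderate differences. Fzd10 did not pass the filter on low counts in this comparison.

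The last comparison is of sonidegib-treated with untreated parental cells. By edgeR 0 of 35 members passed the test, against 0.0652% of 13809 genes (0.00724% higher, 0.0579% lower). At an unadjusted p under 0.05 there were 4 members (Fzd1, Znrf3, Ror2 and Sfrp1), all lower, against 14% of all genes (7.18% higher, 6.86% lower), and DESeq2 called 2, Fzd1 and Znrf3. Groups did not overlap for 12 members, 2 higher and 10 lower, against 34.3% of all genes (18% higher, 16.3% lower). Tcf7, among these lower members, averaged 0.198 CPM with sonidegib and reached the cut of 0.5 CPM only through other groups. The median log2 fold change of the 35 was -0.39, against 0.04 over all genes.

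Fzd1, a Frizzled receptor of the beta-catenin branch, was at 18.8 and 13.1 CPM with sonidegib, against 43.1, 45.4 and 74.1 CPM in parental cells. Both treated libraries were below every control, at a log2 fold change of -1.77 ± 0.34 (adjusted p = 0.117 by edgeR, 1.30e-04 with DESeq2). In the clones Fzd1 was at 50.3 to 73.9 CPM in Ofd1 mutants and 62.4 and 58.5 CPM in Sufu mutants, within the range of parental cells. Znrf3, a ubiquitin ligase that removes Frizzled receptors from the membrane, was at 34.6 and 32.1 CPM with sonidegib, against 52.0, 51.2 and 54.9 CPM in parental cells (log2 -0.66 ± 0.20, adjusted p = 0.250 by edgeR, 0.0425 with DESeq2). It stood at 53.4 to 60.8 CPM in Ofd1 mutants and at 57.6 and 64.1 CPM in Sufu mutants. Ror2 was at 42.7 and 28.7 CPM with sonidegib, against 73.2, 59.3 and 55.0 CPM in parental cells (log2 -0.81 ± 0.27, adjusted p = 0.284). Sfrp1 was at 256 and 236 CPM with sonidegib, against 307 to 572 CPM in parental cells (log2 -0.75 ± 0.31, adjusted p = 0.353, and log2 -0.47 without parental replicate 3).

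For the members that fell in Ofd1 mutants, the values with drug were as follows. Tcf7l2 was at 17.0 and 25.6 CPM with sonidegib, above all controls at 10.7 to 16.1 CPM (log2 0.58 ± 0.32, adjusted p = 0.437 by edgeR, and log2 0.24 without sonidegib replicate 2). Wnt5a was at 73.3 and 32.1 CPM with sonidegib, spanning the controls, at a log2 value of 0.02 ± 0.43 whose sign depends on the library left out (-0.75 without sonidegib replicate 1, 0.48 without replicate 2). Fzd10 was at 155 and 19 counts in the treated libraries, so that a single library decides its value. Outside these, Tcf7 was at 11 counts and 1 count with sonidegib, against 15, 20 and 27 counts in parental cells. These comparisons share their controls, and drug-treated cells and clones were not tested against each other.

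The treated pair differed by more than any other pair of a group, so single libraries decide what is called. Leaving out either one leaves a treated arm of 1 library, so that the spread comes from the parental libraries alone and the lone library is assumed to vary like them. Without sonidegib replicate 1 edgeR called 8 members, Fzd1, Lrp5, Lrp6, Nkd1, Ror1, Ror2, Tcf7 and Znrf3, when 3263 of all genes (23%) were called. The arm was then replicate 2, the library that stands apart. Without replicate 2, 0 members were called, with Fzd1 at -1.55, Znrf3 at -0.62 and Ror2 at -0.57, while Lrp5 was at 0.10, Lrp6 at -0.23 and Ror1 at 0.92. The part of transcript length in these values was not tested. Wif1 was at 1.1 and 8.2 CPM with sonidegib, against 5.5, 8.9 and 81.8 CPM in parental cells, and it became the only member called by edgeR when the library set was a term in the fit (log2 -3.03, adjusted p = 0.0413). Without parental replicate 3 its log2 value was -0.67.

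**Figure D4:**
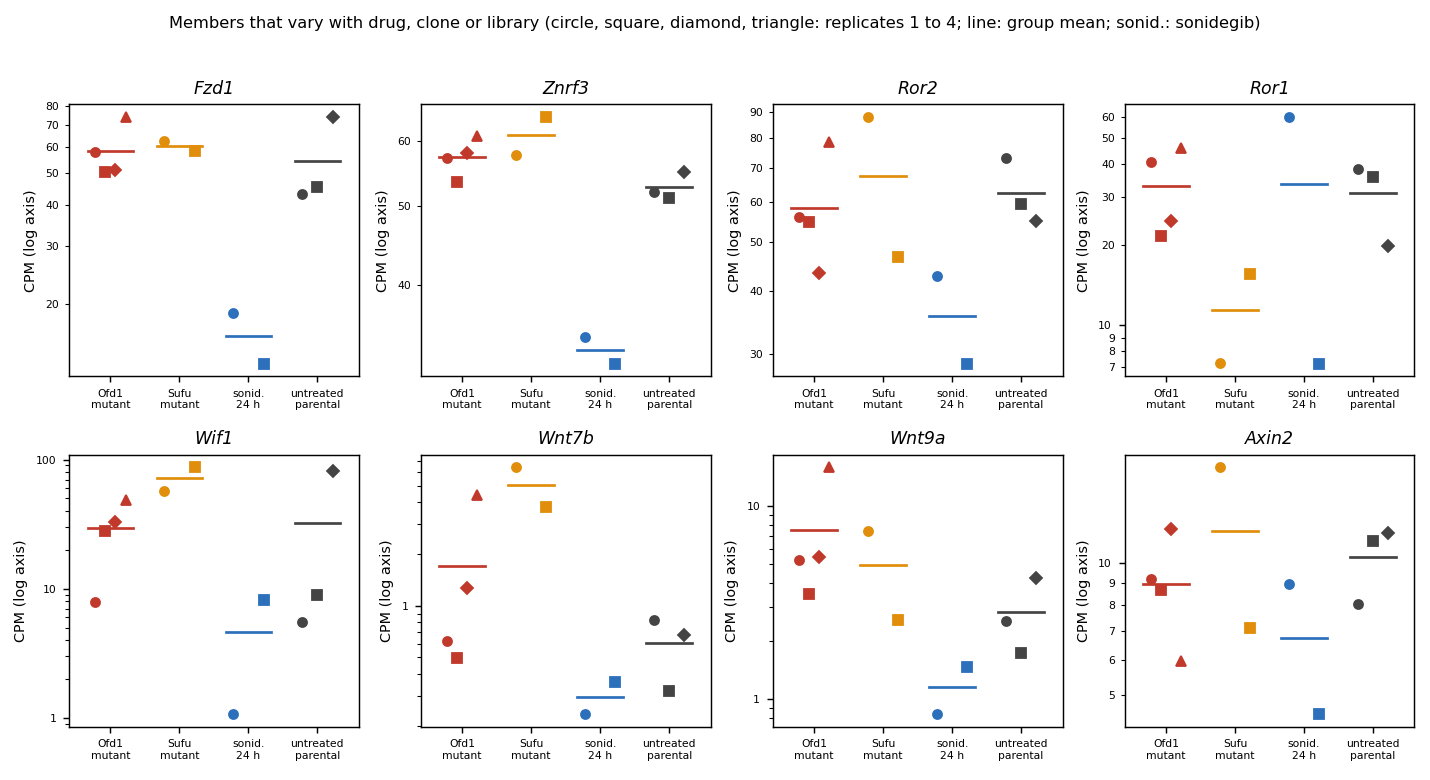
CPM (log axis) of Fzd1, Znrf3, Ror2, Ror1, Wif1, Wnt7b, Wnt9a and Axin2 in each library, by group, with a line at the group mean and a marker shape per replicate. Fzd1, Znrf3 and Ror2 lie lower in both sonidegib libraries than in all controls, and Wif1 in parental replicate 3 is at 81.8 CPM, against 5.5 and 8.9 CPM in the other controls.

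The intracellular members and the feedback genes of the beta-catenin branch showed no difference that passed the test in any comparison. Axin2, a scaffold of the destruction complex and the usual readout of beta-catenin activity, was at 9.2, 8.7, 11.9 and 6.0 CPM in Ofd1 mutants, 16.5 and 7.1 CPM in Sufu mutants, 8.9 and 4.5 CPM with sonidegib and 8.0, 11.2 and 11.7 CPM in parental cells. All groups overlapped, with Sufu clone R13 the highest library and sonidegib replicate 2 the lowest. Its log2 values were -0.20 ± 0.26, 0.21 ± 0.40 and -0.62 ± 0.42 in Ofd1 mutants, Sufu mutants and sonidegib-treated cells against parental cells. Nkd1, another feedback inhibitor, was at 172 ± 39.5 CPM in Ofd1 mutants (SD, n = 4), 201 and 84.3 CPM in Sufu mutants, 148 and 256 CPM with sonidegib and 158 ± 7.94 CPM in parental cells (n = 3). Ctnnb1 was at 996 ± 69.8 CPM in Ofd1 mutants, 1724 and 843 CPM in Sufu mutants, 982 and 1009 CPM with sonidegib and 1033 ± 114 CPM in parental cells. The scaffolds Axin1 and Apc had log2 values against parental cells of -0.42 to 0.08. The E3 ligase Rnf43 stayed between 0.413 and 2.47 CPM, and Lgr4, a receptor for R-spondins, between 19.5 and 38.2 CPM.

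Further genes of the pathway were followed in 5 lists that hold no member. None of their genes passed the edgeR test in any of the 4 comparisons. Of 21 tested genes for Wnt secretion and the destruction complex, the medians were -0.08 in Ofd1 mutants, -0.15 in Sufu mutants and -0.10 with sonidegib (log2, against parental cells). Of 19 modulators at the membrane, those tested had medians of 0.16 in Ofd1 mutants (12 tested), 0.47 in Sufu mutants (11) and -0.37 with sonidegib (11). Single genes ran from -0.81 to 1.65, from -1.07 to 1.67 and from -2.15 to 0.90, in the same order. Nuclear partners of beta-catenin (12 tested) had medians of -0.09, 0.12 and -0.26, and planar cell polarity genes (14 tested) -0.06, -0.14 and -0.06. Other targets of beta-catenin had medians of 0.06 in Ofd1 mutants (13 tested), 0.17 in Sufu mutants (13) and -0.65 with sonidegib (14). At an unadjusted p under 0.05, 5 of these 14 targets were lower with sonidegib (Ccnd1, Myc, Tiam1, Nrcam and Gbx2) and 0 higher. Over all genes 6.86% were lower and 7.18% higher. In Ofd1 mutants 2 targets were higher (Tiam1 and Nrcam) and 1 lower (Apcdd1), against 7.58% and 6.2% of all genes. In Sufu mutants 3 were higher (Tiam1, Nrcam and Dact1) and 0 lower, against 4.93% and 4.75%. The other lists held at most 2 such genes in either direction in any comparison. Ccnd1, a cyclin that is also a Hedgehog target, stood at 253 and 256 CPM with sonidegib, against 723 to 871 CPM in parental cells (log2 -1.68 ± 0.22, adjusted p = 0.0847 by edgeR). Tiam1, an activator of the GTPase Rac, was at 128 to 225 CPM in Ofd1 mutants, 190 and 121 CPM in Sufu mutants, 56.5 and 24.2 CPM with sonidegib and 88.8 to 116 CPM in parental cells. Nrcam, a neural adhesion molecule, was at 34.0 to 66.0 CPM in Ofd1 mutants, 48.2 and 65.5 CPM in Sufu mutants, 13.3 and 20.3 CPM with sonidegib and 25.5 to 30.1 CPM in parental cells. Both thus lay above every control in the clones and below every control with sonidegib, in comparisons that share those controls and with no adjusted p under 0.05. The targets Sp5 and Notum, which respond to beta-catenin in many tissues, were at most at 0.0531 CPM in any library.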

How the data were processed

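The authors deposited raw counts, whole reads assigned to each gene symbol, for all 11 libraries. STAR, DESeq2 and build mm9 are named in the submitters' processing notes. The counting tool, its strand setting and its annotation are not given here. One of 22620 entries named no gene (0.0131% to 0.0192% of a library) and was left out. Per the labels, RNA libraries kept strand and were sequenced in a single run.

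Each pair of groups was tested on its own libraries with edgeR 4.0.16 (quasi-likelihood, robust, TMM, filterByExpr) in R 4.3.3. A gene was called at a Benjamini-Hochberg adjusted p under 0.05 over all genes tested. CPM use TMM-scaled totals. A standard error is the absolute log2 fold change over the square root of F. Exon lengths and gene IDs came from GENCODE M21 (GRCm38) by symbol, for all 57 genes. Alternatives were DESeq2 1.42.0, RLE factors, no filter, 1 fit over all 11 libraries, each library left out, the library set or the replicate number as a term, and the R14 libraries summed. The procedure was tested on simulated counts with the same spread for every gene and no clone pair, library set or outlying library. That test does not cover the uneven spread between these libraries. The labels call some libraries biological replicates but name no separate cultures, so p-values measure the spread between these libraries, which may be technical.

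Members, lists and library sets were chosen with earlier results of these data known. Values in every library are given for Wnt5a, Tcf7l2, Fzd10 and Sfrp1, for called members, and for those with an absolute log2 fold change of at least 1, an unadjusted p under 0.05 and no overlap. Other members and list genes were named after their values were seen. In bulk RNA, fewer cells with a transcript and less of it per cell cannot be told apart.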

Additional observations from a re-analysis of the deposited data

Results flagged for a closer look

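Among the 35 members, 3 had an Ofd1-mutant library far from the other 3. Chance flags about 1 in 20 groups where all libraries are independent. The R14 libraries share a clone, so the chance rate for these groups is not known. All 3 flags fell on clones read in 1 library. Sfrp1 was at 301 CPM in replicate 3 (clone R16), against 130 to 132 CPM in the other Ofd1 libraries. Wnt9a was at 15.9 CPM in replicate 4 (clone R25), against 3.5 to 5.5 CPM in the others. Nkd1 was at 113 CPM in replicate 4 (clone R25), against 188 to 199 CPM in the others.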

How the results depend on the processing

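Of 26 named log2 values recomputed 293 times in all, 283 kept their direction. For Ofd1 mutants against parental cells, 3 members were called in the main test, 10 with DESeq2, and 0 with 1 fit over all 11 libraries, with the library set as a term or with the R14 libraries summed; leaving out 1 library gave 0 to 6. Over all genes the 50 calls became 770 with DESeq2, 84 without the filter, 9 with 1 fit, 12 with the library set, 1 with R14 summed, and 0 to 329 with 1 library left out. For Sufu mutants against parental cells, DESeq2 called 7 members and 326 genes, where edgeR called 0 of each, 3 genes without the filter and 0 to 11 genes with 1 library left out. The Sfrp1 log2 value of 0.27 became -0.20 with the library set and ran from -0.71 to 0.84 with 1 library left out. For Ofd1 against Sufu mutants, DESeq2 called 1 member and 266 genes, against 0 and 1 by edgeR, with 2 genes without the filter, 0 with R14 summed and 0 to 11 with 1 library left out. Tcf7l2 ran from -0.50 to 0.16 there. For sonidegib against parental cells, 0 members were called, 2 with DESeq2, 2 with 1 fit, 1 with the library set and 0 to 8 with 1 library left out. Over all genes the 9 calls became 711 with DESeq2, 109 without the filter, 316 with 1 fit, 215 with the library set and 0 to 3263 with 1 library left out. The Wnt5a log2 value of 0.02 became -0.0064 with DESeq2, -0.0034 with RLE factors and -0.0119 without the filter, and ran from -0.75 to 0.48 with 1 library left out, and Fzd10 from -3.08 to 0.13. With the replicate number as a block, 97 genes and 0 members were called and Wnt5a was at -0.36. Deviations of same-numbered sonidegib and parental libraries correlated at 0.259 for number 1 and -0.338 for number 2. In a group of 2 libraries the deviations from the group mean mirror each other. These correlations therefore cannot show whether the numbers pair the libraries. Leaving out 1 of 2 Sufu or sonidegib libraries leaves a lone library, assumed to vary like the other group. The causes were not tested. Groups of 2 to 4 libraries limit every test, and members under 1 CPM rest on few counts.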
